A study of Mus musculus with 6 samples.

Results

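The 10 genes described here encode the sensors, adaptor, proteases, pore protein and kinases of inflammasome signaling, pyroptosis and necroptosis: Nlrp3, Aim2, Zbp1, Pycard, Casp1, Casp4, Casp8, Gsdmd, Ripk3 and Mlkl. They were taken by symbol from the 31130 genes quantified in 6 mouse lung tumors, and all 10 passed the filter on low counts that left 11240 genes for testing. The tumors came from wild-type C57BL/6 mice, female and 6–8 weeks old per the methods. All mice received EGFP-labeled LLC cells (the Lewis lung carcinoma line, of mouse origin) in the left lung on day 14, and the tumor tissue was collected on day 21. In the LC group (3 tumors), saline had been given through the oropharynx on day 0. In the IP + LC group (3 tumors), bleomycin had been given in the same way at 2 mg/kg body weight on day 0, a drug that damages lung tissue and is used to model interstitial pneumonia (IP) with fibrosis. The comparison addresses how a lung tumor differs when it grows in a lung with interstitial pneumonia. No lung with bleomycin alone and no healthy lung was among the 6 samples, so an effect of bleomycin on the lung and one on the tumor cannot be told apart.

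An inflammasome is a protein platform that a sensor of infection or damage builds in the cytosol. The sensor recruits the adaptor encoded by Pycard, the adaptor recruits the protease encoded by Casp1, and this protease matures interleukin-1β and interleukin-18 and cleaves the protein encoded by Gsdmd, whose fragment forms pores in the plasma membrane. The lytic death that follows is pyroptosis. Necroptosis is another lytic death, in which the kinases encoded by Ripk1 and Ripk3 activate the membrane-disrupting protein encoded by Mlkl. The protease encoded by Casp8 holds necroptosis in check and drives apoptosis, and the sensor encoded by Zbp1 can engage Ripk3 directly. In the lung, macrophages are a known site of inflammasome activity. These pathways are switched by cleavage, assembly and phosphorylation, and RNA levels measure none of these steps.

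Bulk RNA barcoding and sequencing was used, which reads the 3′ ends of polyadenylated transcripts and tags every captured molecule with a random sequence of 10 nucleotides (the unique molecular identifier, UMI), so that PCR copies are not counted again. Libraries held 592733 to 1631066 UMIs. Levels are given as CPM, the UMIs of a gene per 1000000 UMIs, after scaling of the libraries by the trimmed mean of M-values (TMM), and before this scaling 3 UMIs corresponded to 5.06 CPM in LC replicate 1 and to 1.84–2.24 CPM in the other libraries. LC replicate 1, the smallest library, also stood apart from its group. Its levels, as log2(CPM + 4), correlated with LC replicates 2 and 3 across genes at r = 0.840 and 0.800, whereas those 2 libraries correlated at 0.962 and the IP + LC libraries at 0.968 to 0.973. Although the labels name lung cancer cells, the tissue held other cells: 6 markers of lung epithelium summed to 68491–74767 CPM in the LC tumors and 7841–13822 CPM in the IP + LC tumors, and 4 markers of all leukocytes to 825–948 and 946–1291 CPM. In such bulk samples, a change in the number of cells of a type and a change in RNA per cell cannot be told apart. The tumors are labeled as separate samples, and nothing more is stated of their origin, so the p-values measure only the spread between these samples, which may be technical in part.

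RNA of 9 of the 10 genes was higher in the IP + LC tumors, at adjusted p below 0.1 in the quasi-likelihood test of edgeR over all tested genes, and none was lower. Of all tested genes, 16.8% were higher and 19.6% lower by the same limit. The same 9 genes had every IP + LC tumor above every LC tumor, which held for 21.6% of all tested genes. The median log2 fold change of the 10 genes was 1.17, beside 0.02 over all tested genes. The 10 genes were chosen with earlier results of these data known, so these comparisons describe the set and do not test it. Zbp1 rose 7.70-fold and Mlkl 5.27-fold, the other 7 rose between 1.85-fold and 2.49-fold, and Casp8 did not pass the test. Summed over the 10 genes, the level was 448, 293 and 273 CPM in LC replicates 1, 2 and 3 and 829.9, 997 and 880.1 CPM in IP + LC replicates 1, 2 and 3. Without Zbp1, the gene with the largest change, the sums were 396, 266 and 238 CPM against 583, 658 and 615 CPM. That these sums did not overlap follows from the separation of the single genes and is not a further result.

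**Figure D1:**
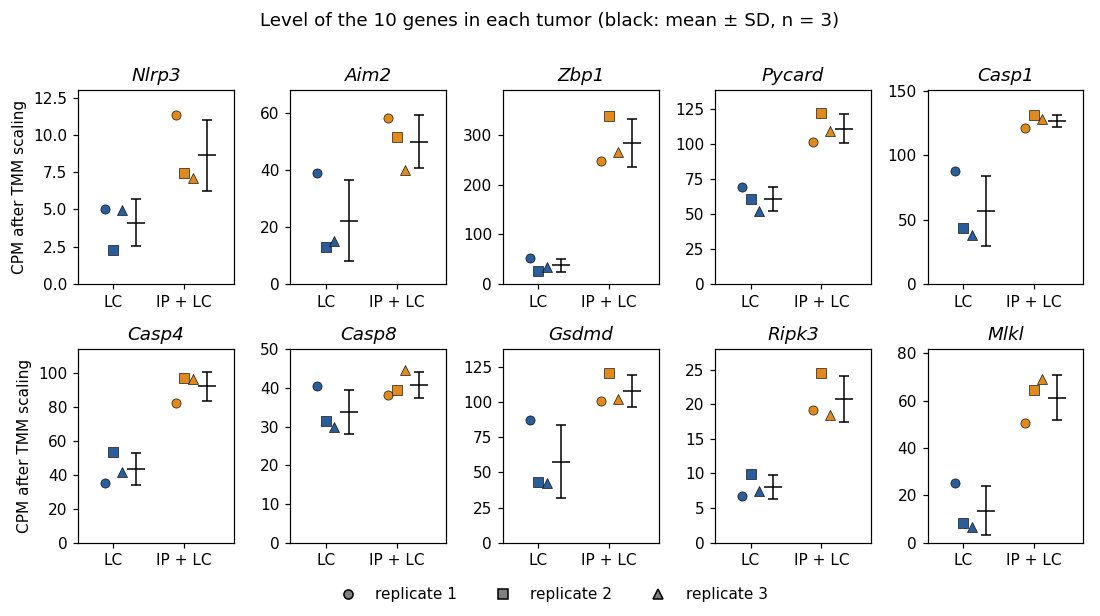
Level of each of the 10 genes in CPM after TMM scaling (vertical axes from 0, each panel with its own scale) in the 3 LC tumors (blue) and the 3 IP + LC tumors (orange), with marker shapes for replicate numbers and the mean ± SD in black. In 9 panels every orange marker lies above every blue one, and in the Casp8 panel LC replicate 1 at 40.4 CPM lies among the IP + LC tumors at 38.3, 39.4 and 44.8 CPM.

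LC replicate 1 had the highest level among the LC tumors for 8 of the 10 genes, all but Casp4 and Ripk3. Its level was 3.36 times the mean of LC replicates 2 and 3 for Mlkl, 2.77 times for Aim2, 2.14 times for Casp1 and 2.06 times for Gsdmd. Accordingly, the coefficient of variation ranged from 13.9% (Pycard) to 76.5% (Mlkl) in the LC tumors and from 3.83% (Casp1) to 27.4% (Nlrp3) in the IP + LC tumors. When LC replicate 1 was left out, all 10 genes were higher at adjusted p below 0.1, beside 28.3% of the genes tested in that fit. The log2 fold change then increased for 8 genes and was lower for Casp4 and Ripk3. When LC replicate 2, LC replicate 3, IP + LC replicate 1 or IP + LC replicate 2 was left out, 6 of the 10 genes passed, beside 8.81%, 11.2%, 9.25% and 7.62% of the genes tested in these fits. Without IP + LC replicate 3, 8 passed, beside 11.1%. The genes that lost the call were Nlrp3 in each of these 5 fits, Gsdmd and Aim2 in the 4 that left 6.

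**Figure D2:**
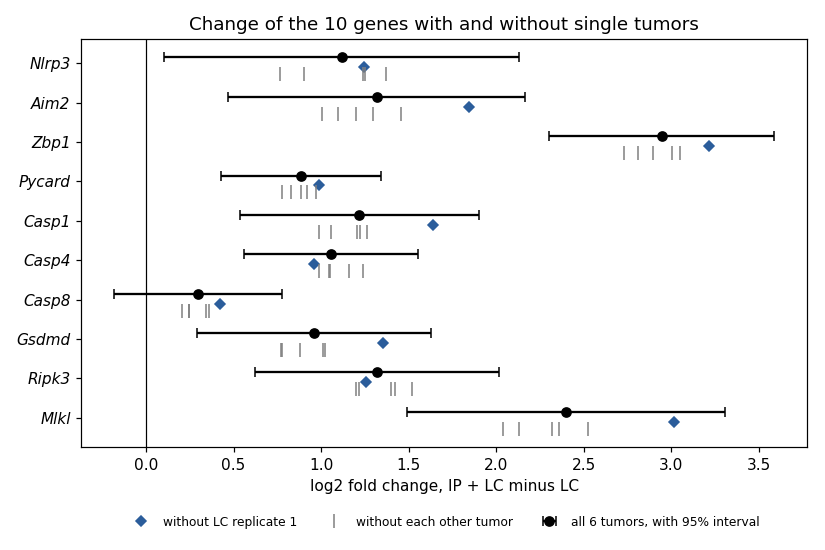
log2 fold change of the 10 genes (IP + LC minus LC) with all 6 tumors and its 95% interval (black), without LC replicate 1 (blue diamonds) and without each of the other tumors (grey ticks). Every fitted value lies above 0, only the interval of Casp8 includes 0, Zbp1 and Mlkl have the largest values, and without LC replicate 1 they move to 3.22 and 3.02.

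Among the sensors, Zbp1 recognizes nucleic acids in the Z conformation and is induced by interferon. The gene (ENSMUSG00000027514) lies on the minus strand at chr2:173206612-173218923 of GRCm38. It had 31, 35 and 42 UMIs in LC replicates 1, 2 and 3 and 348, 593 and 373 UMIs in IP + LC replicates 1, 2 and 3, or 52.2, 26.8 and 34.8 CPM against 247, 339 and 265 CPM. The lowest IP + LC tumor was thus far above the highest LC tumor. The level was 37.9 ± 13.0 CPM in the LC tumors and 283 ± 48.6 CPM in the IP + LC tumors (SD, n = 3 each), and the log2 fold change of 2.94 (SE 0.29, 95% interval 2.30 to 3.59) had an adjusted p of 0.000820 in edgeR. Among all tested genes its log2 fold change stood at percentile 99.7.

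Aim2 senses double-stranded DNA in the cytosol and builds an inflammasome with the adaptor encoded by Pycard. The gene (ENSMUSG00000037860) lies on the plus strand at chr1:173350879-173466040. Its UMIs numbered 23, 17 and 18 in the LC tumors and 82, 90 and 56 in the IP + LC tumors, in the order of the replicates. In CPM, LC replicate 1 at 38.7 came close to IP + LC replicate 3 at 39.8, whereas LC replicates 2 and 3 were at 13.0 and 14.9 and IP + LC replicates 1 and 2 at 58.2 and 51.4. The group mean rose from 22.2 ± 14.3 to 49.8 ± 9.30 CPM (SD, n = 3 each), with a log2 fold change of 1.32 (SE 0.38) and an adjusted p of 0.0304 by edgeR. This call depended on the tumors used: the adjusted p was 4.02e-05 without LC replicate 1, but 0.147 and 0.111 when LC replicate 2 or 3 was left out and 0.112 and 0.111 when IP + LC replicate 1 or 2 was left out. At most 4.09% of an Aim2 transcript was shared with another gene, Olfr46, as a match of at least 81 nucleotides and 95% identity.

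Nlrp3 encodes the sensor of the best studied inflammasome, which responds to loss of potassium and to damage of membranes. The gene (ENSMUSG00000032691) lies on the plus strand at chr11:59541568-59566956. It had the fewest UMIs of the 10 genes, with 3, 3 and 6 in the LC tumors and 16, 13 and 10 in the IP + LC tumors. A count of 3 has a 95% Poisson interval of 0.62 to 8.77 UMIs and a count of 10 one of 4.80 to 18.4 UMIs, which cover counting error only. The groups did not overlap in CPM, with 5.05, 2.30 and 4.97 in the LC tumors and 11.3, 7.42 and 7.10 in the IP + LC tumors. The mean was 4.11 ± 1.57 CPM and 8.63 ± 2.36 CPM (SD, n = 3 each), and the log2 fold change of 1.12 (SE 0.45, 95% interval 0.11 to 2.13) had an adjusted p of 0.0954 by edgeR, just under the limit. The call was lost in 10 of the 13 alternative fits that tested the gene, for example at an adjusted p of 0.262 with DESeq2, 0.139 with limma voom, 0.347 when LC replicate 2 and 0.301 when IP + LC replicate 1 was left out. It was kept without LC replicate 1 (adjusted p 0.0579).

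The adaptor gene Pycard encodes ASC, which links the sensors to the protease. The gene (ENSMUSG00000030793) lies on the minus strand at chr7:127989708-127993867. It had 41, 79 and 63 UMIs in the LC tumors and 143, 214 and 154 in the IP + LC tumors, or 69.1, 60.5 and 52.2 CPM against 101, 122 and 109 CPM. Both groups were tight, and the LC tumors lay below the IP + LC tumors without overlap. The mean rose from 60.6 ± 8.44 to 111 ± 10.5 CPM (SD, n = 3 each), with a log2 fold change of 0.89 (SE 0.20, 95% interval 0.43 to 1.34) and an adjusted p of 0.0131 by edgeR. Of the exonic bases of Pycard, 12.8% are overlapped on the other strand by Gm45205, which had at most 3 UMIs in any library. The strand setting of the counting is not given in the sources used here.

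Casp1 and Casp4 encode the inflammatory proteases. The first acts in the inflammasomes with ASC, and the second, also known as caspase-11 in the mouse, binds bacterial lipopolysaccharide in the cytosol and cleaves the gasdermin D pore protein without a separate sensor. Both genes lie on the plus strand of chromosome 9, Casp1 (ENSMUSG00000025888) at chr9:5298517-5307265 and Casp4 (ENSMUSG00000033538) at chr9:5308828-5336783, and 1562 bases separate them. Casp1 had 52, 57 and 46 UMIs in the LC tumors and 171, 229 and 180 in the IP + LC tumors, or 87.6, 43.7 and 38.1 CPM against 121, 131 and 128 CPM. The IP + LC tumors were nearly equal, and the spread was in the LC tumors. The mean rose from 56.5 ± 27.1 to 127 ± 4.85 CPM (SD, n = 3 each), and the log2 fold change was 1.22 (SE 0.30, 95% interval 0.53 to 1.90) with an adjusted p of 0.0183 by edgeR. Without LC replicate 1 it was 1.64.

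For Casp4, 21, 70 and 50 UMIs were counted in the LC tumors and 116, 170 and 136 in the IP + LC tumors, or 35.4, 53.6 and 41.4 CPM against 82.3, 97.1 and 96.6 CPM. Here LC replicate 1 was the lowest LC tumor and not the highest. The mean level rose from 43.5 ± 9.29 to 92.0 ± 8.41 CPM (SD, n = 3 each), with a log2 fold change of 1.06 (SE 0.22, 95% interval 0.56 to 1.55) and an adjusted p of 0.00888 by edgeR. For Casp12, the next gene beyond Casp4 at a distance of 8646 bases and another member of the inflammatory caspase family, the log2 fold change was 0.22 (SE 0.24, adjusted p 0.534 by edgeR). A difference between the change of Casp12 and those of its neighbors was not tested.

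Casp8 encodes the protease at the junction of apoptosis, pyroptosis and necroptosis. The gene (ENSMUSG00000026029) lies on the plus strand at chr1:58795374-58847503. It had 24, 41 and 36 UMIs in the LC tumors and 54, 69 and 63 in the IP + LC tumors, or 40.4, 31.4 and 29.8 CPM against 38.3, 39.4 and 44.8 CPM. This was the one gene whose groups overlapped, through LC replicate 1. The mean was 33.9 ± 5.72 and 40.8 ± 3.45 CPM (SD, n = 3 each), and the log2 fold change of 0.30 (SE 0.21) had an adjusted p of 0.329 by edgeR. Its 95% interval, -0.18 to 0.78, includes a decrease, no change and an increase. With LC replicate 1 left out, it was 0.42 with an adjusted p of 0.0968. Up to 8.17% of a Casp8 transcript was shared with Gm20257 by the match given above.

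Gsdmd encodes gasdermin D, the pore protein of pyroptosis. The gene (ENSMUSG00000022575) lies on the plus strand at chr15:75862327-75867408. It had 52, 56 and 51 UMIs in the LC tumors and 142, 212 and 144 in the IP + LC tumors, or 87.6, 42.9 and 42.2 CPM against 101, 121 and 102 CPM. LC replicate 1 lay closer to the IP + LC tumors than to the other LC tumors. The mean rose from 57.6 ± 26.0 to 108 ± 11.3 CPM (SD, n = 3 each), and the log2 fold change of 0.96 (SE 0.30, 95% interval 0.29 to 1.63) had an adjusted p of 0.0404 by edgeR. The call was lost when LC replicate 2 or 3 was left out (adjusted p 0.167 and 0.127), when IP + LC replicate 1 or 2 was left out (0.104 and 0.153), and when all libraries were thinned to 592733 UMIs (0.131). Without LC replicate 1 the adjusted p was 1.78e-05.

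Of the necroptosis genes, Ripk3 encodes the kinase that phosphorylates the executioner. The gene (ENSMUSG00000022221) lies on the minus strand at chr14:55784995-55788865. Its UMIs were few in the LC tumors, with 4, 13 and 9, against 27, 43 and 26 in the IP + LC tumors. The CPM of 6.74, 9.96 and 7.46 in the LC tumors lay below the 19.2, 24.6 and 18.5 of the IP + LC tumors in every case. On average the level rose from 8.05 ± 1.69 to 20.7 ± 3.33 CPM (SD, n = 3 each), with a log2 fold change of 1.32 (SE 0.31, 95% interval 0.62 to 2.01) and an adjusted p of 0.0141 by edgeR.

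Mlkl encodes the executioner of necroptosis, a pseudokinase that permeabilizes the plasma membrane once phosphorylated. The gene (ENSMUSG00000012519) lies on the minus strand at chr8:111311797-111338177. It had 15, 11 and 8 UMIs in the LC tumors and 71, 113 and 97 in the IP + LC tumors, or 25.3, 8.43 and 6.63 CPM against 50.4, 64.5 and 68.9 CPM. The LC tumors again divided, with LC replicate 1 above the other two, and no LC tumor reached an IP + LC tumor. The mean rose from 13.4 ± 10.3 to 61.3 ± 9.69 CPM (SD, n = 3 each), and the log2 fold change of 2.40 (SE 0.40, 95% interval 1.49 to 3.30) had an adjusted p of 0.00367 by edgeR. Without LC replicate 1 it was 3.02, with an adjusted p of 8.87e-07.

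Casp8 and Mlkl had the smallest and the largest change among the 8 genes for which a promoter window was at hand, and the 250 bases before their starts are therefore shown. The sequences are those of RefSeq on GRCm38.p6, 5′ to 3′ on the strand of the gene, from chr1:58802252-58802501 for Casp8 (plus strand, a start inside the span that GENCODE gives the gene) and chr8:111338206-111338455 for Mlkl (minus strand). Capitals mark GAAA and its reverse complement TTTC, the letters that recur in binding sites of interferon regulatory factors.
Casp8: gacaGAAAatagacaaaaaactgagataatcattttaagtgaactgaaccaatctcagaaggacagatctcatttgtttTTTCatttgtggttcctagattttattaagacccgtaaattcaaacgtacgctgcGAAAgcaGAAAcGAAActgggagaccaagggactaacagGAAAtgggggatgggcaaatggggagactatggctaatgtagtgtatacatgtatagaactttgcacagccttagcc
Mlkl: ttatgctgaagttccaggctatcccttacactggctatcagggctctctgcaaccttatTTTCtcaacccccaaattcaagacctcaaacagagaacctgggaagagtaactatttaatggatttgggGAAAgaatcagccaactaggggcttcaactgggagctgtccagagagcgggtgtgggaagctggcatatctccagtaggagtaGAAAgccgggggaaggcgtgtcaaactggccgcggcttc

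The Casp8 sequence held 6 of these matches, of which 3 began at positions -116, -109 and -104 counted from the transcription start, and the Mlkl sequence held 3. A longer search used windows of 250 bases before to 50 bases after the start, on both strands. GAAA was found in at least 1 window of each of the 8 genes (Casp1, Casp4, Casp8, Nlrp3, Aim2, Pycard, Ripk3 and Mlkl), and in 89.2% of the 32851 windows of all genes. The core of the interferon-stimulated response element (a GAAA repeated after any 2 bases) was found in none of the 8 and in 3.44% of all windows. TTCNNNGAA, the core of the gamma-activated site, was found in none of the 8 and in 8.3% of all windows. These results describe letters in these windows and nothing about the binding of a factor.

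Because UMIs of genes in the same tumor share its depth, their ratio is free of the scaling between libraries. The 9 ratios computed were picked after the values had been seen and are given without a test. For each UMI of Casp8 there were 0.625, 0.268 and 0.222 UMIs of Mlkl in the LC tumors and 1.31, 1.64 and 1.54 in the IP + LC tumors. The ratio of Ripk3 to Casp8 was 0.167, 0.317 and 0.25 against 0.5, 0.623 and 0.413, and that of Zbp1 to Casp8 was 1.29, 0.854 and 1.17 against 6.44, 8.59 and 5.92. Per UMI of Casp8, these 3 genes were higher in every IP + LC tumor than in every LC tumor. Casp8 was the 1 gene of the 10 that did not pass the test, so these ratios largely restate the changes given above. The share of all tested genes that were higher on this scale was not computed. Within the necroptosis genes, Zbp1 per UMI of Ripk3 was 7.75, 2.69 and 4.67 against 12.9, 13.8 and 14.3, whereas Mlkl per UMI of Ripk3 overlapped between the groups (3.75, 0.846 and 0.889 against 2.63, 2.63 and 3.73). Zbp1 per UMI of Mlkl overlapped as well, at 2.07, 3.18 and 5.25 against 4.90, 5.25 and 3.85.

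Of the inflammasome genes, the ratio of Casp1 to Pycard was 1.27, 0.722 and 0.730 in the LC tumors and 1.20, 1.07 and 1.17 in the IP + LC tumors, and that of Casp1 to Casp4 was 2.48, 0.814 and 0.92 against 1.47, 1.35 and 1.32. Both overlapped, with LC replicate 1 above all other tumors. The ratio of Gsdmd to Casp1 was 1, 0.982 and 1.11 in the LC tumors and 0.830, 0.926 and 0.8 in the IP + LC tumors, a difference of -0.27 in mean log2 ratio without overlap.

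**Figure D3:**
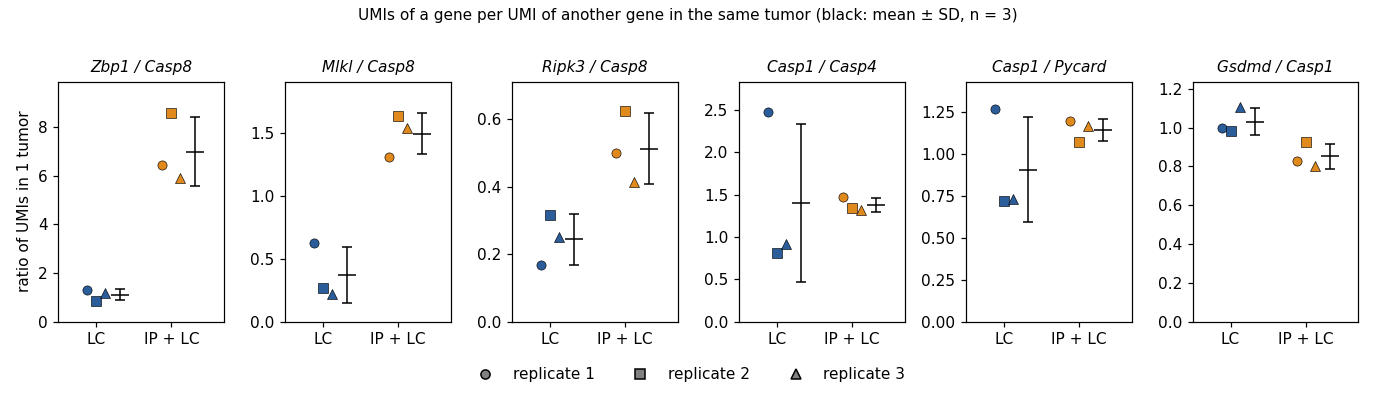
UMIs of 1 gene per UMI of another in the same tumor (vertical axes from 0, each panel with its own scale) for 6 of the 9 ratios, LC tumors in blue and IP + LC tumors in orange, with the mean ± SD in black. The ratios of Zbp1, Mlkl and Ripk3 to Casp8 are higher in every IP + LC tumor, Gsdmd to Casp1 is lower, and the 2 ratios of Casp1 to Casp4 and to Pycard overlap through LC replicate 1.

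Markers of cell types differed between the groups beside these genes. The 10 macrophage markers summed to 2416, 866 and 634 CPM in LC replicates 1, 2 and 3 and to 2434, 3086 and 2757 CPM in the IP + LC tumors, so that LC replicate 1 was the highest LC tumor for them, as it was for 8 of the 10 genes. Of the 10, 5 rose, among them Fcgr1, C1qa, C1qc and Adgre1 (log2 fold changes 2.42, 1.36, 1.28 and 0.74), and 5 did not pass the test, among them Cd68 (0.68, adjusted p 0.172 by edgeR) and Mrc1 (-0.02, adjusted p 0.975). The 8 markers of alveolar macrophages all fell, from sums of 1708–2139 CPM to 224–465 CPM. Of the monocyte markers 3 of 5 rose and 1, Chil3, which is also on the alveolar macrophage list, fell. Of the neutrophil markers 3 of 6 tested fell and none rose (790.1–1911 against 153–325 CPM), and Ly6g had at most 2 UMIs in any library. For the dividing cell markers 4 of 5 rose (457, 101 and 95.3 CPM in LC replicates 1, 2 and 3 against 814–952 CPM).

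All tested markers of lung epithelium (6), endothelium (4) and B cells (4) fell, as did 2 of 4 of dendritic cells and 2 of 4 of NK cells. None of the 5 tested T cell markers passed the test in either direction. Fibroblast markers were split, with Col1a1 and Col1a2 higher and Pdgfra, Dcn and Lum lower. None of the listed markers was at 0 in all libraries.

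The levels were next taken per UMI of these markers, a calculation added after the data had been seen and given without a test. Such a denominator shifts the log2 difference of every gene by the same amount, so the order of the genes cannot change, and a change of sign restates the change of the denominator. Per UMI of the 4 leukocyte markers, 7 of the 10 genes were higher in every IP + LC tumor, and Casp8, Gsdmd and Aim2 overlapped, beside 8.29% of all tested genes that were higher in every IP + LC tumor on this scale and 29.5% that were lower. The mean log2 difference was 2.58 for Zbp1, 2.07 for Mlkl and 1.01 for Ripk3, and the median over the 10 genes was 0.83. Of these markers 1 of 4, Laptm5, rose (0.62, adjusted p 0.0797 by edgeR).

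Per UMI of the 10 macrophage markers, every difference was shifted by -0.958 from its value per leukocyte marker UMI. On this scale Zbp1 and Mlkl were higher in every IP + LC tumor, Casp8 was lower in every one, and the other 7 genes overlapped, with a median difference of -0.13 over the 10 genes. This median includes LC replicate 1, whose marker sum was 2416 CPM against 866 and 634 CPM in LC replicates 2 and 3. A median without it was not computed. Of all tested genes, 1.44% were higher in every IP + LC tumor on this scale and 44.5% lower. For each 100 macrophage marker UMIs there were 2.16, 3.09 and 5.49 UMIs of Zbp1 in the LC tumors and 10.1, 11.0 and 9.61 in the IP + LC tumors. For Mlkl the values were 1.05, 0.973 and 1.05 against 2.07, 2.09 and 2.50, and for Casp8 1.67, 3.63 and 4.71 against 1.57, 1.28 and 1.62. On this scale LC replicate 1 was close to the other LC tumors for Mlkl but below both for Casp8. It was also below both for Casp4 (1.46 against 6.19 and 6.54), Pycard (2.86 against 6.98 and 8.24) and Ripk3 (0.279 against 1.15 and 1.18). The same held for Casp1, Gsdmd, Nlrp3 and Zbp1, whereas for Aim2 it lay between them. The 3 C1q genes made up 49.2–67.9% of the macrophage marker UMIs in the LC tumors and 67.4–72.1% in the IP + LC tumors. With the 7 other markers alone, Casp1, Aim2, Zbp1 and Mlkl were higher in every IP + LC tumor, the other 6 overlapped, and the median difference was 0.31, beside 3.7% of all tested genes that were higher in every IP + LC tumor and 39.8% that were lower.

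**Figure D4:**
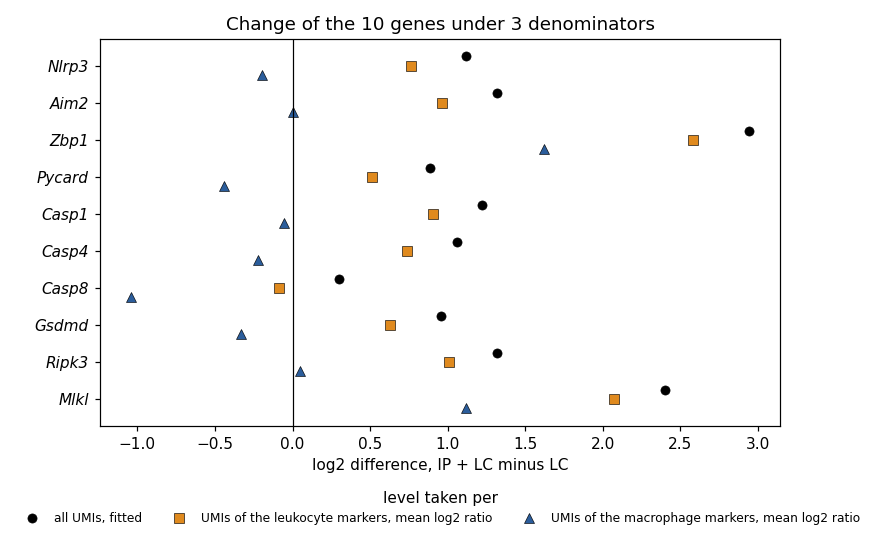
Difference between the groups (IP + LC minus LC, log2 scale) of each of the 10 genes as fitted on all UMIs (black circles), and as mean log2 ratio to the UMIs of the 4 leukocyte markers (orange squares) and of the 10 macrophage markers (blue triangles). The squares and triangles of all genes are apart by the same distance. Zbp1 and Mlkl stay above 1 under all 3, whereas the blue triangles of the other genes lie between 0.051 (Ripk3) and -1.04 (Casp8).

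The other genes of these pathways were counted from a list of 72, of which 70 were in the tables and 52 were tested. Of the 52, 15 rose, 7 fell and 30 did not pass the test. The rise in 15 of 52 stands beside 16.8% of all tested genes and 9 of the 10 genes above, and the fall in 7 of 52 beside 19.6% of all tested genes. Leaving out IP + LC replicate 1 reduced the number that fell to 3 (beside 13.4% of the genes tested in that fit), as did leaving out IP + LC replicate 2 (11.6%), and leaving out LC replicate 2 reduced it to 4 (13.6%). Their log2 fold changes had a median of 0.34.

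**Figure D5:**
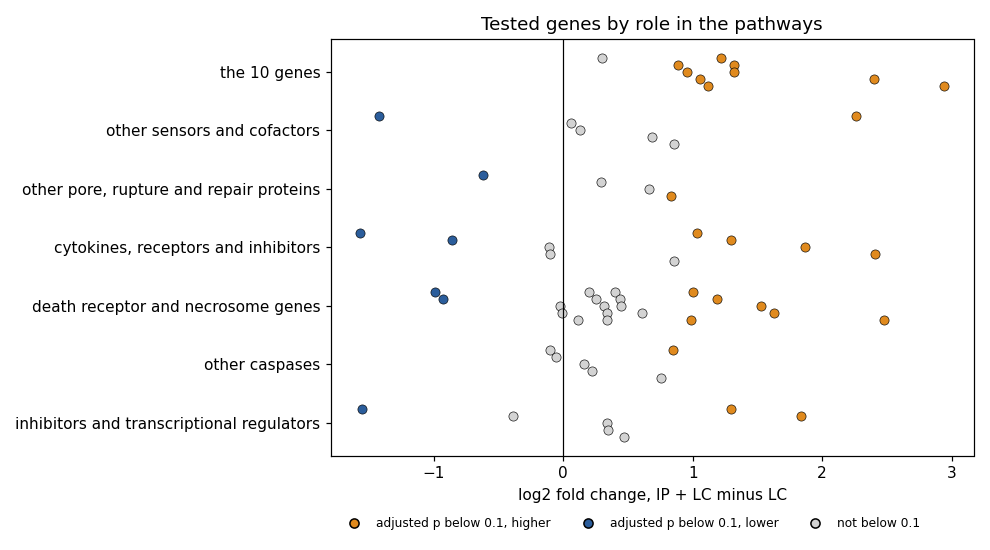
log2 fold change (horizontal axis, IP + LC minus LC) of the 10 genes and of the 52 other tested genes, 1 row for each role, with genes higher at adjusted p below 0.1 in orange, lower in blue and the rest in grey. The row of the 10 genes lies entirely above 0 with 9 in orange, and the rows of the other roles hold 15 orange, 7 blue and 30 grey points.

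Of the other sensors and cofactors, 1 of 6 tested rose and 1 fell. Ifi204, a DNA sensor of the family of Aim2, had 31, 44 and 27 UMIs in the LC tumors and 197, 340 and 234 in the IP + LC tumors (log2 fold change 2.26, SE 0.31, adjusted p 0.00157 by edgeR). Txnip, which binds thioredoxin and can engage Nlrp3, fell by 1.43 on the log2 scale (adjusted p 0.00371). Most other sensors had too few UMIs to be tested, with 0 UMIs of Nlrp6 in all libraries and 1 UMI of Naip1 in 1 library. Genes of the Naip and Ifi200 families have close paralogs, and their counts are uncertain to that extent.

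Of the pore, rupture and repair genes, 1 of 4 tested rose, 1 fell and 2, Gsdme and Chmp4b, did not pass the test. Ninj1, which mediates the final rupture of the membrane, rose (0.83, adjusted p 0.0652 by edgeR), and Chmp3, part of the machinery that repairs membrane pores, fell by 0.62 on the log2 scale (adjusted p 0.0439). Gsdme, another pore-forming gasdermin, had 6, 25 and 36 UMIs in the LC tumors and 40, 67 and 46 in the IP + LC tumors, with overlap in CPM and a log2 fold change of 0.66 (adjusted p 0.159). Chmp4b, which like Chmp3 belongs to the repair machinery, did not pass (0.29, adjusted p 0.301, overlap between the groups). Gsdmc had 1 UMI in 1 library and 0 in the others, and Gsdmc4 had 0 in all libraries.

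Of the cytokines, receptors and inhibitors, 4 of 9 tested rose and 2 fell. Il1b, the main substrate of the Casp1 protease, had 64, 68 and 77 UMIs in the LC tumors and 210, 347 and 141 in the IP + LC tumors. Its groups overlapped in CPM through LC replicate 1 and IP + LC replicate 3, and the log2 fold change was 1.04 (SE 0.33, adjusted p 0.0476 by edgeR). Il18, which encodes the other cytokine matured by this protease as given above, went the opposite way. It had 18, 46 and 39 UMIs against 25, 26 and 31 and a mean of 32.6 ± 2.47 CPM against 18.2 ± 3.61 CPM (SD, n = 3 each). It fell by 0.86 on the log2 scale (SE 0.24, adjusted p 0.0284 by edgeR), without overlap. Of the genes that limit these cytokines, Il18bp, the soluble binding protein of interleukin-18, rose, with 4, 18 and 15 UMIs against 82, 131 and 76 (2.41, adjusted p 0.00111), and Il1rn, the antagonist of the interleukin-1 receptor, rose by 1.87 (adjusted p 0.00231). Il1r2, the decoy receptor of interleukin-1, did not pass the test (0.85, adjusted p 0.344, overlap between the groups). The chains of the interleukin-18 receptor diverged, Il18rap rising by 1.29 (adjusted p 0.0121) and Il18r1 falling (-1.57, adjusted p 0.0140).

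Of the death receptor and necrosome genes, 6 of 20 tested rose, 2 fell and 12 did not pass. Ripk1, whose kinase starts the necrosome with Ripk3, had 21, 26 and 42 UMIs in the LC tumors and 79, 111 and 80 in the IP + LC tumors, a rise from 30.0 ± 8.76 to 58.7 ± 4.03 CPM (SD, n = 3 each; log2 fold change 1.00, SE 0.25, adjusted p 0.0198 by edgeR). Tnfrsf10b, the mouse death receptor for TRAIL, had 0, 8 and 8 UMIs against 44, 47 and 39 (2.48, adjusted p 0.00510). Adar, which encodes an RNA editing enzyme that limits Zbp1 activation, rose by 1.63 (adjusted p 0.0113), and Rnf31, a subunit of the linear ubiquitin ligase, by 1.53 (adjusted p 0.00683). The remaining 2 that rose were Tnfaip3 and Traf2. The death ligand gene Tnfsf10 and the receptor gene Fas fell (-0.99 and -0.93, adjusted p 0.0381 and 0.0297 by edgeR). The groups overlapped in CPM for Tnfsf10, with LC replicate 1 at 33.7 below IP + LC replicate 3 at 36.9, and not for Fas. The neighbor of Casp8, Cflar, which encodes its inhibitor, did not pass the test (log2 fold change 0.34, adjusted p 0.411).

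Of the inhibitors and transcriptional regulators, 2 of 7 tested rose: Irf1 by 1.84 (adjusted p 0.00510 by edgeR) and Irf8 by 1.30 (adjusted p 0.00468), which encode interferon regulatory factors. Serpinb1a, which encodes an inhibitor of neutrophil proteases and of inflammatory caspases, fell by 1.56 on the log2 scale (adjusted p 0.00136). Of the neutrophil markers, 3 of 6 tested fell in the same tumors, as given above, and their part in that result was not tested.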

How the data were processed

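RNA from 3 LC and 3 IP + LC tumors was analyzed. The authors extracted UMIs with UMI-tools 1.1.1, trimmed reads with Trim Galore 0.6.7, aligned them to GRCm38 with HISAT2 2.2.1, assigned them with featureCounts 2.0.1 and counted each different UMI. The deposited values are raw UMI counts per gene, 1 table for each tumor. The annotation release and strand setting are not given in the sources used here. The submitters' processing notes also name DESeq2.

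From these counts, edgeR 4.0.16 in R 4.3.3 was run with TMM scaling, filterByExpr (minimum count 10, total 15), the quasi-likelihood test without a block and Benjamini-Hochberg adjustment over 11240 genes, with the limit of 0.1 for differentially expressed genes taken from the methods of the study. The scripts were tested on simulated data. Alternatives were other scalings and filters, DESeq2 1.42.0, limma 3.58.1 (voom), a replicate block, thinning to 592733 UMIs (seed 1) and each tumor left out. The 10 genes, the list of 72 and the marker lists were chosen with earlier results of these data known. All 10 genes were named. Of the list, the 3 largest increases and decreases past the limit in each role, genes with UMIs in no more than 1 library, and Il1b, Il18, Ripk1 and Gsdme were named, apart from genes that are not reported here. Casp12, Cflar, Chmp4b, Il1r2, Tnfaip3 and Traf2 were named outside this rule, after their values had been seen. Positions came from GENCODE M21 on GRCm38, promoters from RefSeq, and shared transcript sequence from blastn 2.17.0+, searched for the 10 genes. Gsdmc2 and Gsdmc3 were not analyzed here, 2 listed genes were matched by synonym (Ifi208 and Ifi213), and a planned search of protein motifs was not run. Replicates differed beyond counting noise (chi-square per degree of freedom 2.45–14.8).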

Additional observations from a re-analysis of the deposited data

How the results depend on the processing

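Over 15 alternatives, 145 values of the 10 genes were obtained, of which 125 kept their direction and side of the limit, 19 lost the call, 1 gained it and 0 reversed. Casp1, Casp4, Pycard, Zbp1, Ripk3 and Mlkl kept their call wherever tested, with adjusted p at most 0.0938. The number of the 10 genes called was 9 and became 8 with upper quartile scaling, no filter, DESeq2, limma voom or an adjusted p limit of 0.05, 6 of 7 tested with at least 10 UMIs in every library, 6 of 8 tested after thinning, and 6 to 10 with 1 tumor left out. Of all genes tested under the scalings, filters, tests, block and thinning, 7.87% to 22.7% were higher. Of the other pathway genes, 14 instead of 22 were called after thinning and 15 to 29 with 1 tumor left out. Over all genes, 1661 instead of 4092 were called after thinning, and 2260 (without IP + LC replicate 2) to 6692 (without LC replicate 1) with 1 tumor left out; leaving out LC replicate 2 or IP + LC replicate 1 gave 2585 and 2661. Library size alone split the calls into 2555 higher and 1766 lower, against 1889 and 2203, and moved the median log2 fold change of all genes from 0.02 to 0.19. Nlrp3 and Ripk3 had too few UMIs to be tested after thinning, and Nlrp3, Ripk3 and Mlkl could not be tested with at least 10 UMIs required in every library.

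Each marker denominator shifts all genes alike, so the sign changes that follow restate the rise of the denominator. Per UMI of markers, Casp8 became -0.085 with leukocyte markers, -1.04 with macrophage markers and -0.61 without the C1q genes. With macrophage markers, Casp1 (-0.055), Casp4 (-0.22), Gsdmd (-0.33), Nlrp3 (-0.20) and Pycard (-0.44, and -0.0047 without the C1q genes) were below 0 as well. With macrophage markers, Zbp1 was 1.62, Mlkl 1.12, Ripk3 0.051 and Aim2 0.0059.

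Deviations of same-numbered tumors from their group means correlated at r = 0.026, -0.12 and 0.11. Those of tumors with different numbers correlated at -0.142 to 0.126. With 3 tumors per group, these values cannot decide whether the replicate numbers pair the tumors. With the replicate number as a block, 8 of the 10 genes were called (Nlrp3 was lost, adjusted p 0.180), 3413 genes in all, and the other pathway genes called again numbered 22.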

Other observations

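The tested genes within 100000 bases of the 10 genes, other than these genes themselves, numbered 29, of which 6 rose, 3 fell and 20 did not pass the test. The 20.7% that rose stand beside 16.8% of all tested genes. Ifi206, which lies 2444 bases from Aim2 and belongs to the same family, rose by 2.02 on the log2 scale (adjusted p 0.00507 by edgeR). Adcy4, 899 bases from Ripk3, fell by 1.71 (adjusted p 0.00217), and Itgam, 68772 bases from Pycard and the gene of a myeloid integrin, rose by 1.25 (adjusted p 0.0111). Neighbors thus moved in either direction. These 3 genes were named after their values had been seen.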
